A study of Mus musculus with 6 samples.

Results

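Chemokine genes were followed in bEND.3 cells, a mouse brain endothelial line that has been immortalized, after knockdown of the long non-coding RNA Gm39822. They were 10 genes chosen by symbol out of 49315 in the count table, namely the ligands Ccl2, Ccl4, Ccl5, Ccl7, Cxcl1, Cxcl10, Cxcl12, Cxcl16 and Cx3cl1 and the scavenging receptor Ackr3. All 10 had enough reads to be tested. The cells had received, by lipid transfection, either an antisense LNA GapmeR against Gm39822 or a negative control GapmeR, both at 100 nM. GapmeRs are short antisense oligonucleotides whose DNA middle recruits RNase H, which cuts the paired RNA. Both groups were grown in serum-containing medium with the same transfection reagent, and the labels name no inflammatory stimulus for these samples. The Gm39822 GapmeR was in 4 samples (GapmeR 1 to 4) and the control oligonucleotide in 2 (Negative Control 1 and 2). One cell line and a single targeting oligonucleotide were used, and nothing in the labels says whether the samples came from separate cultures, so p-values measure the spread between these samples, which may be technical.

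Chemokines are small secreted proteins that steer leukocytes along gradients. They are named for the spacing of their first cysteines (CC, CXC and CX3C), and they act on G-protein coupled receptors of the leukocyte, whereas atypical receptors such as Ackr3 take them up without G-protein signalling. Endothelial cells of the brain present them on their luminal face, where they help to arrest rolling monocytes and T cells. The genes of many inflammatory chemokines are induced through NF-kB and, for the ligands of CXCR3, through interferon signalling, while Cxcl12 is a homeostatic chemokine made without a stimulus.

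The ligand genes lie in clusters, which the choice of genes did not use. In mm10, Cxcl10 spans 92346638 to 92348889 on chromosome 5, 10.7 kb from Cxcl11, and Cxcl1 spans 90891245 to 90893121 on the same chromosome, 10.8 kb from Cxcl2. On chromosome 11, Ccl2 (82035577 to 82037452) and Ccl7 (82045712 to 82047525) are neighbours 8.26 kb apart. Ccl5 (83525778 to 83530518) and Ccl4 (83648624 to 83664683) share a further cluster on that chromosome with Ccl9, Ccl6 and Ccl3, whose RefSeq model on the opposite strand overlaps that of Ccl4, and Cxcl16 (70454389 to 70459984) lies by itself. Cxcl12 lies on chromosome 6 from 117168535 to 117181368, Cx3cl1 on chromosome 8 from 94772180 to 94782427 and Ackr3 on chromosome 1 from 90203980 to 90215724.

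RefSeq promoter windows matched 5 of the 10 genes, and the 250 bases before the start are shown for 3 of them, as examples of a gene that was lower after knockdown (Cxcl10) and of genes that did not pass the test (Cxcl1 and Cxcl12). The windows are chr5:92348890-92349139 on the minus strand for Cxcl10, chr5:90890995-90891244 on the plus strand for Cxcl1 and chr6:117168285-117168534 on the plus strand for Cxcl12, all from GRCm38.p6. Capitals mark, on either strand, the NF-kB consensus in Cxcl10 and Cxcl1, the core of the interferon-stimulated response element (GAAANNGAAA) in Cxcl10, and GC boxes (GGGCGG) in Cxcl12.
Cxcl10: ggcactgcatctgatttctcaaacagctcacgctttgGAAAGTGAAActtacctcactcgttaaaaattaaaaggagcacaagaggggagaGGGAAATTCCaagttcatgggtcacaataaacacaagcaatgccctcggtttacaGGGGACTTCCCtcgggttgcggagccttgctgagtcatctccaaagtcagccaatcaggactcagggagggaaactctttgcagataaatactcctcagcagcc
Cxcl1: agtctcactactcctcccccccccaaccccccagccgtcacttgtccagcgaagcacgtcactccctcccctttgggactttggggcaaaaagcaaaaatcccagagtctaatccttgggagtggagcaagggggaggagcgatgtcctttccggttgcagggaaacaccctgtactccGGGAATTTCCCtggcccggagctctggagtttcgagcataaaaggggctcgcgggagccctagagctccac
Cxcl12: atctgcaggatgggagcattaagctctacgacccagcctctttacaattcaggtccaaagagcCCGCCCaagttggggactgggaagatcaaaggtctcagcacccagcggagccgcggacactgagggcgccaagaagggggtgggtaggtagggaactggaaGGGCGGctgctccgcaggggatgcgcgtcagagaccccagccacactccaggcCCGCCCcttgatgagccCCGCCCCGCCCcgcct

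The Cxcl10 window held the response element core from 213 to 204 bases before the start and the NF-kB consensus from 159 to 150 and, in overlapping matches, from 104 to 94 bases before it. In Cxcl1 the NF-kB consensus matched on both strands, in overlapping matches from 71 to 61 bases before the start. The Cxcl12 window had neither, and 5 GC boxes. The window of Cx3cl1, which was also lower after knockdown, likewise had neither and 1 GC box, from 27 to 22 bases before the start, and so did that of Ackr3, from 68 to 63 bases before it. Of all 32851 RefSeq windows of this length, 2.98% held the response element core, 7.25% the NF-kB consensus and 32.7% a GC box. A match describes letters only and says nothing of binding.

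Gm39822 had 2, 1, 4 and 2 counts in GapmeR 1 to 4 and 61 and 56 in the controls. Total counts ran from 29261988 (Negative Control 1) to 37117934 (GapmeR 2), and levels are given as CPM, counts scaled to one common library size with edgeR's TMM method. All 14 endothelial markers had counts in every sample, with a summed level of 8270 and 8015 CPM in the controls and 6180 to 7141 CPM after knockdown. By the edgeR test described below, 7 of them fell and 1 rose, where 20.0% of all genes tested were called lower and 25.4% higher. Of these markers, the transporters Slco1c1 and Mfsd2a stayed at or below 1.47 CPM, and Mfsd2a was among those that fell (log2 fold change -0.85). Abcb1a was at 5.11 to 7.99 CPM and Cldn5 at 1420 to 1630 CPM. Of 8 lymphocyte markers, 7 had at most 3 counts in any sample and Cd3g, Ms4a1, Nkg7 and Ncr1 had none. The 12 macrophage markers were all present. Of them, 3 rose (Cd68, Fcgr1 and Mrc1) and none fell, where 25.4% of all genes tested were called higher. Their sum was 178 and 174 CPM in the controls, 228 and 209 in GapmeR 1 and 2, and 355 and 388 in GapmeR 3 and 4. Without Lyz2 and Cd68 it was 21.79 and 22.15 CPM in the controls, 26.03 and 22.45 in GapmeR 1 and 2, and 62.61 and 65.81 in GapmeR 3 and 4. The 9 pericyte and fibroblast markers summed to 15.4 and 16.6 CPM in the controls, to 16.3 to 20.8 in GapmeR 1, 2 and 4, and to 75.8 in GapmeR 3, where Col1a1 and Col1a2 were high.

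Of the 10 genes, 4 fell after Gm39822 knockdown (Ccl2, Ccl7, Cxcl10 and Cx3cl1) and 1 rose (Ccl4), each called by edgeR's quasi-likelihood test at an adjusted p under 0.05 over all 18234 genes tested, which is meant wherever an edgeR adjusted p is given. Among all genes tested 45.3% were called, 20.0% as lower and 25.4% as higher, so that 5 calls among 10 are near the background in number. Without Negative Control 2 the number of genes called went from 8268 to 5232. The median log2 fold change of the 10 genes was -0.37, beside 0.03 over all genes tested. All GapmeR samples lay below both controls in 5 of the genes and above both in 2, beside 27.3% and 31.9% of all genes tested (59.2% for either side), and the groups overlapped in 3. Because RNA came from bulk cultures, fewer cells of a type and less RNA per cell cannot be told apart. With 15 ways to split the 6 samples, the exact permutation p of a single gene cannot go below 0.0667, the value that Cxcl10, Ccl2, Ccl7, Ccl4 and Cxcl12 reached. A fit chosen after seeing the data left out GapmeR 3 and 4, where the macrophage markers were highest. The log2 fold changes were then -1.24 for Cxcl10, -0.67 for Ccl2, -1.41 for Ccl7 and -0.49 for Cx3cl1, and all 4 passed the edgeR test. This fit set only GapmeR 1 and 2 against the 2 controls, and the part of macrophage RNA in these levels was not tested.

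**Figure D1:**
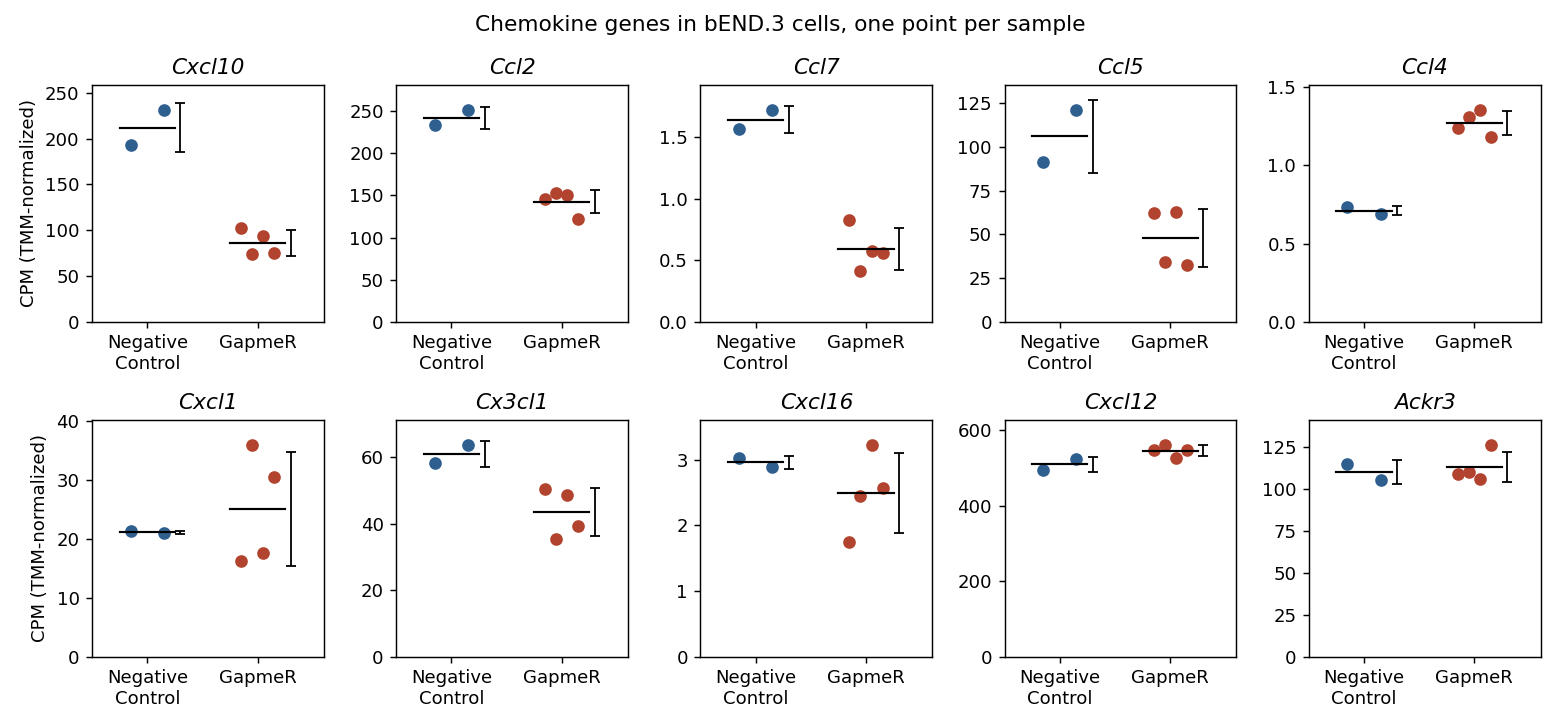
Normalized expression of the 10 chemokine genes in CPM, one panel per gene with a linear axis from 0, for the 2 Negative Control and 4 GapmeR samples. Each point is a sample, the horizontal line is the group mean and the bar beside it is the SD; GapmeR samples lie below both controls in the panels of Cxcl10, Ccl2, Ccl7, Ccl5 and Cx3cl1, and above both in Ccl4 and Cxcl12.

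Cxcl10, which attracts activated T cells and NK cells through CXCR3, fell in every GapmeR sample to between 34.9% and 48.6% of the control mean. It measured 193 and 231 CPM in the controls and 103, 73.9, 94.0 and 75.0 CPM in GapmeR 1 to 4. The control mean of 212 ± 27.1 CPM (SD, n = 2) compared with 86.5 ± 14.4 CPM after knockdown (SD, n = 4). This was a log2 fold change of -1.29 (SE 0.14, edgeR adjusted p = 6.4e-05). The highest GapmeR sample was thus well under the lowest control.

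Cxcl11, the other CXCR3 ligand next to Cxcl10 on chromosome 5, showed a larger fall. It is not among the 10 genes, and it had 703 and 948 counts in the controls against 130, 75, 82 and 62 in GapmeR 1 to 4. Its level was 27.7 ± 2.86 CPM (SD, n = 2) in the controls and 2.58 ± 0.903 CPM (SD, n = 4) after knockdown, which is 10.7-fold lower. The log2 fold change of Cxcl11 was -3.43 (95% interval -3.91 to -2.94, edgeR adjusted p = 1.1e-06), and that of Cxcl10 had an interval of -1.61 to -0.98, so the intervals did not overlap. Within samples, Cxcl10 carried 7.50 and 7.77 times the CPM of Cxcl11 in the controls and 26.8, 38.4, 35.6 and 39.1 times in GapmeR 1 to 4. Cxcl9, the remaining CXCR3 ligand, had at most 6 counts in a sample and was not tested.

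Ccl2, the main attractant of CCR2-bearing monocytes, was the most abundant of the 10 genes per kb of exon, by the union lengths used here. It measured 233 and 251 CPM in the controls, against 146, 153, 150 and 122 CPM in GapmeR 1 to 4. Every GapmeR sample was at 50.6% to 63.4% of the control mean, and the groups were far apart relative to their spread. The log2 fold change was -0.76 (SE 0.09, edgeR adjusted p = 2.9e-06).

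Ccl7, which also acts on CCR2, fell by more than its neighbour Ccl2 in its point estimate, on few reads. It had 43 and 55 counts in the controls and 28, 16, 18 and 18 in GapmeR 1 to 4. The level was 1.65 ± 0.109 CPM (SD, n = 2) against 0.594 ± 0.172 CPM (SD, n = 4) after knockdown. This gave a log2 fold change of -1.48 (SE 0.30, edgeR adjusted p = 0.00071). The 95% intervals of the log2 fold changes, -2.10 to -0.85 for Ccl7 and -0.94 to -0.57 for Ccl2, overlapped. The further genes of this cluster were nearly silent, with at most 2 counts in a sample for Ccl12, at most 4 for Ccl11, at most 7 for Ccl8 and at most 1 for Ccl1.

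Ccl5 and Ccl4, CC chemokines that attract T cells and macrophages, differed in level and in direction. Ccl5 measured 91.4 and 121 CPM in the controls and 62.0, 34.5, 62.7 and 32.8 CPM in GapmeR 1 to 4. All GapmeR samples were below both controls, but they fell into a higher pair (GapmeR 1 and 3) and a lower pair (GapmeR 2 and 4), which differed up to 1.91-fold. The log2 fold change was -1.15 (95% interval -2.15 to -0.15), and it did not pass adjustment (edgeR adjusted p = 0.068). DESeq2's Wald test called it with an adjusted p = 0.013 and limma-voom with an adjusted p = 0.00082, whereas with the replicate number as a block edgeR's adjusted p = 0.44.

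Ccl4 had 20 and 22 counts in the controls and 42, 51, 42 and 38 in GapmeR 1 to 4, and was the one gene of the set that rose. Its level was 0.710 ± 0.0288 CPM (SD, n = 2) in the controls and 1.27 ± 0.0782 CPM (SD, n = 4) after knockdown, 1.79-fold higher, with a log2 fold change of 0.84 (SE 0.27, edgeR adjusted p = 0.020). The call rested on both controls, since without Negative Control 1 the adjusted p = 0.077 and without Negative Control 2 the edgeR adjusted p = 0.12, and DESeq2's Wald test gave an adjusted p = 0.059. Macrophages are a known source of Ccl4, and the macrophage marker sum was above both controls in every GapmeR sample and highest in GapmeR 3 and 4. Without Lyz2 and Cd68 the sum in GapmeR 2, 22.45 CPM, was close to the controls (21.79 and 22.15 CPM). The part of macrophage RNA in the level of Ccl4 was not tested. Ccl4 was at 1.24 and 1.31 CPM in GapmeR 1 and 2 and at 1.35 and 1.18 CPM in GapmeR 3 and 4, and without the latter pair its log2 fold change was 0.87 (edgeR adjusted p = 0.028).

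**Figure D2:**
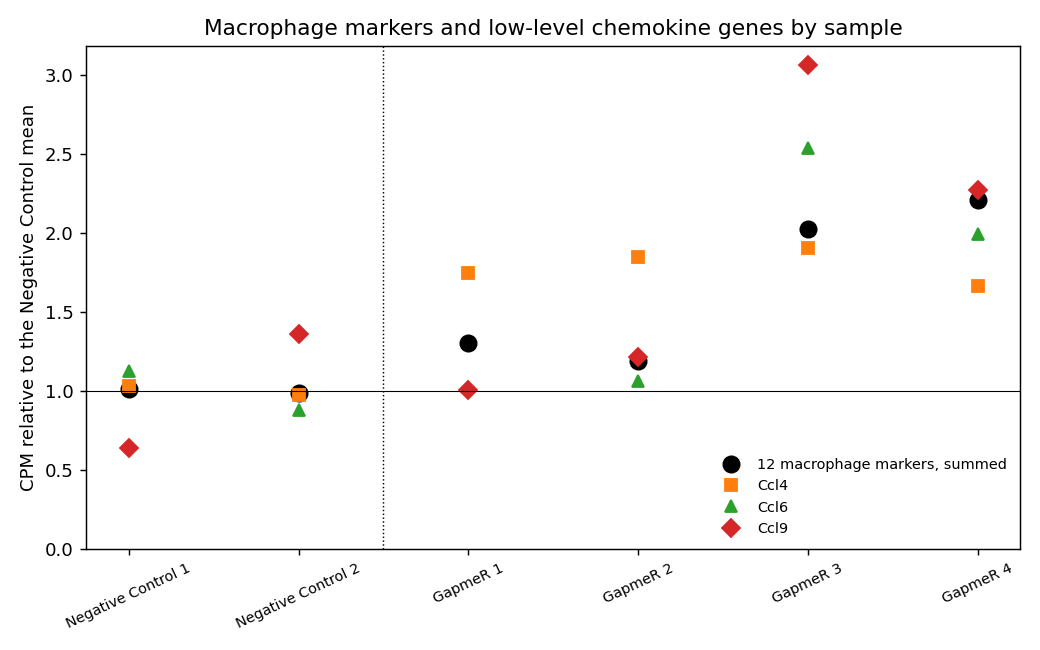
Expression in each sample divided by the mean of the Negative Control samples (y axis, CPM ratio), for the sum of 12 macrophage markers and for Ccl4, Ccl6 and Ccl9. The marker sum, Ccl6 and Ccl9 are highest in GapmeR 3 and 4, while Ccl4 is at 166% to 191% of the control mean in all 4 GapmeR samples.

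Ccl6 and Ccl9, myeloid chemokines of the Ccl5 and Ccl4 cluster, were highest in GapmeR 3 and 4, as was the marker sum. Ccl6 measured 0.840 and 0.658 CPM in the controls, 0.767 and 0.796 in GapmeR 1 and 2, and 1.90 and 1.49 in GapmeR 3 and 4. Ccl9 stood at 0.621 and 1.32 CPM in the controls, 0.974 and 1.18 in GapmeR 1 and 2, and 2.97 and 2.20 in GapmeR 3 and 4. Neither gene passed the test (edgeR adjusted p = 0.15 and 0.19), and the part of macrophage RNA in their levels was not tested.

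Cxcl1, which recruits neutrophils through CXCR2, did not differ between the groups beyond the spread, and that spread was wide after knockdown. The controls were at 21.3 and 20.9 CPM, and GapmeR 1 to 4 at 16.3, 35.9, 17.6 and 30.5 CPM. GapmeR 1 and 3 lay below both controls and GapmeR 2 and 4 above both, so the pairs were the same as for Ccl5 and in the opposite order. The log2 fold change was 0.25 (95% interval -0.85 to 1.35, edgeR adjusted p = 0.67). Cxcl2, its neighbour and a further CXCR2 ligand, measured 1.72 and 1.57 CPM in the controls and 1.15 to 2.00 CPM after knockdown, with a log2 fold change of 0.06 (95% interval -0.47 to 0.60).

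Cx3cl1 encodes fractalkine, a chemokine made as a membrane-anchored stalk on endothelium that holds CX3CR1-bearing monocytes. Its level was 58.2 and 63.6 CPM in the controls and 50.4, 35.4, 48.7 and 39.3 CPM in GapmeR 1 to 4, all below both controls. The log2 fold change was -0.49 (SE 0.13, edgeR adjusted p = 0.013). Without Negative Control 2 it was -0.40 and no longer passed (edgeR adjusted p = 0.13). Its control mean was 1.40-fold that of the GapmeR samples, so it was not called with a 1.5-fold threshold. GapmeR 2 and 4 were again the lower pair.

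Cxcl16, the other membrane-anchored chemokine and the ligand of CXCR6, had the lowest level of the 10 genes per kb of its 5.12 kb exon union. In reads it was above Ccl4 and Ccl7, with control means of 2.96 CPM against 0.710 and 1.65 CPM, so its rank depends on that length. It had 83 and 92 counts in the controls and 59, 95, 100 and 83 in GapmeR 1 to 4, and the groups overlapped. Its log2 fold change was -0.25 (95% interval -0.72 to 0.22, edgeR adjusted p = 0.38). The gene overlaps Med11 on the opposite strand, which had 2240 counts over the 6 samples against 512 for Cxcl16, and whether the counting used strand is not given in the sources used here, so some of the reads may belong to Med11.

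Among genes known to cut chemokines from the membrane or to clip them, 8 were listed, 6 tested and 2 fell. Over all genes tested, 20.0% were called lower. Adam10, the protease that sheds fractalkine and CXCL16 from resting cells, measured 203 ± 10.2 CPM in the controls (SD, n = 2) and 147 ± 9.68 CPM after knockdown (SD, n = 4), giving a log2 fold change of -0.47 (edgeR adjusted p = 0.00011). Mmp14, a membrane-bound matrix protease, had a log2 fold change of -0.72 (edgeR adjusted p = 0.00015).

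Cxcl12, which binds CXCR4 and Ackr3, held the most reads of all ligands and did not pass the test. It measured 496 and 524 CPM in the controls and 549, 561, 528 and 548 CPM in GapmeR 1 to 4. The GapmeR samples were all above both controls, but GapmeR 3 was only just above Negative Control 2. The log2 fold change was 0.10 (95% interval -0.05 to 0.25, edgeR adjusted p = 0.28), so a change as large as that of Ccl2 in either direction lies outside the interval. Scaled by library size only, it was 0.25 (edgeR adjusted p = 0.0096), a setting that moved the median of all genes up by 0.15 on the log2 scale and the share of calls that were higher from 55.9% to 74.1%.

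Ackr3, the atypical receptor that removes Cxcl12 and Cxcl11 from the surroundings of endothelial cells, measured 115 and 105 CPM in the controls and 109, 110, 106 and 126 CPM in GapmeR 1 to 4. The groups overlapped, and GapmeR 4 was the high sample. Its log2 fold change was 0.04 (95% interval -0.14 to 0.21, edgeR adjusted p = 0.73) and took a negative sign, -0.02, without GapmeR 4, and -0.01 without Negative Control 2. Cxcl12 carried 4.30 and 5.00 times the CPM of Ackr3 in the controls and 4.33 to 5.11 times after knockdown, which overlap.

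**Figure D3:**
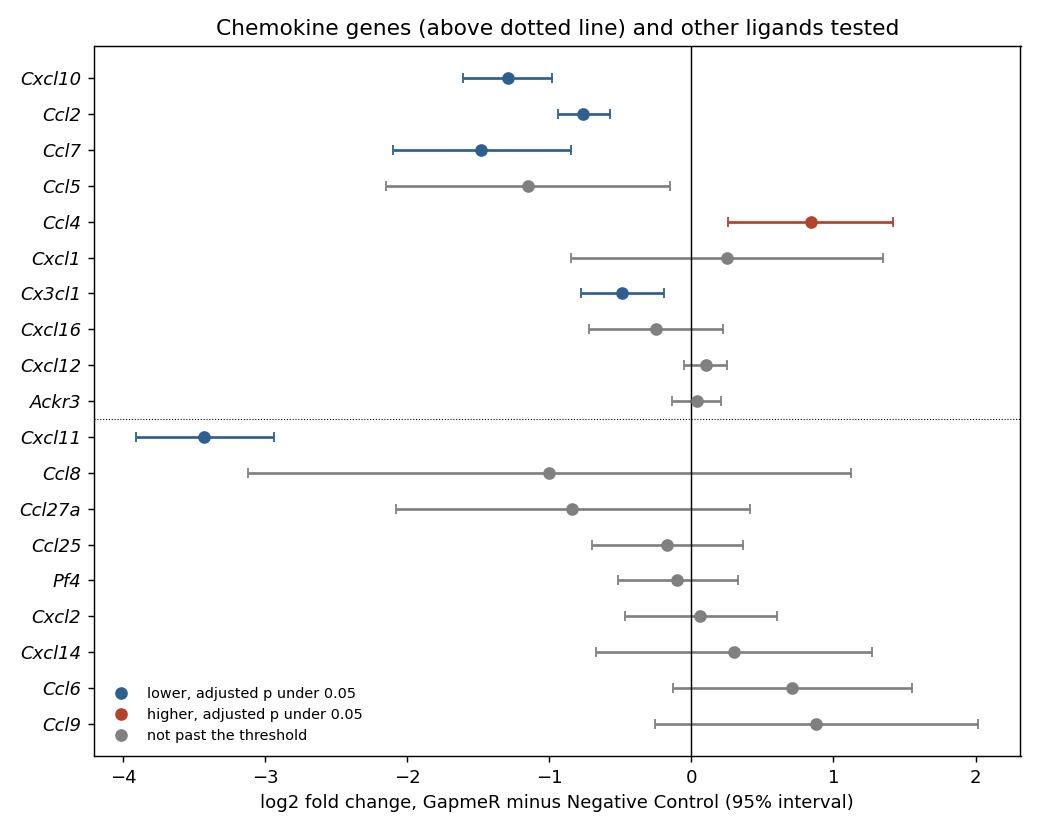
Log2 fold change of GapmeR minus Negative Control (x axis) with its 95% interval for the 10 chemokine genes, above the dotted line, and for the 9 other chemokine ligands with enough reads, below it. Blue and red mark adjusted p-values under 0.05 for lower and higher genes; Cxcl11, at -3.43, lies to the left of all others, and the intervals of Cxcl12 and Ackr3 are narrow and include 0.

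Across the set, the scatter among GapmeR samples differed between genes. The coefficient of variation in the 4 GapmeR samples was 2.48% for Cxcl12, 6.16% for Ccl4, 8.05% for Ackr3 and 9.83% for Ccl2, and it was 34.6% for Ccl5 and 38.5% for Cxcl1. In the controls it was between 1.28% (Cxcl1) and 19.8% (Ccl5), from 2 samples each. GapmeR 1 and 3 were above GapmeR 2 and 4 for Ccl5, Cxcl10, Cx3cl1 and Ccl7, and for Cxcl11 and Pf4 outside the set. For Ccl7 the margin came from scaling alone, with 0.580 CPM in GapmeR 3 and 0.557 CPM in GapmeR 4, each from 18 counts. For Pf4 it was small too, with 2.48 CPM in GapmeR 1 and 2.45 CPM in GapmeR 4. The share of all genes with this order was not counted. As a percentage of the control mean, GapmeR 1 to 4 stood at 58.4%, 32.5%, 59.0% and 30.8% for Ccl5 and at 77.2%, 170%, 83.3% and 145% for Cxcl1. Irf7, a factor that drives interferon genes, had the same order as Ccl5, at 76.6%, 53.5%, 77.4% and 55.4%. The order was not particular to chemokine or interferon genes. The endothelial markers Kdr (877, 750, 866 and 820 CPM in GapmeR 1 to 4) and Eng (458, 327, 468 and 436 CPM) had it too. The labels give no batch that would separate these pairs.

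**Figure D4:**
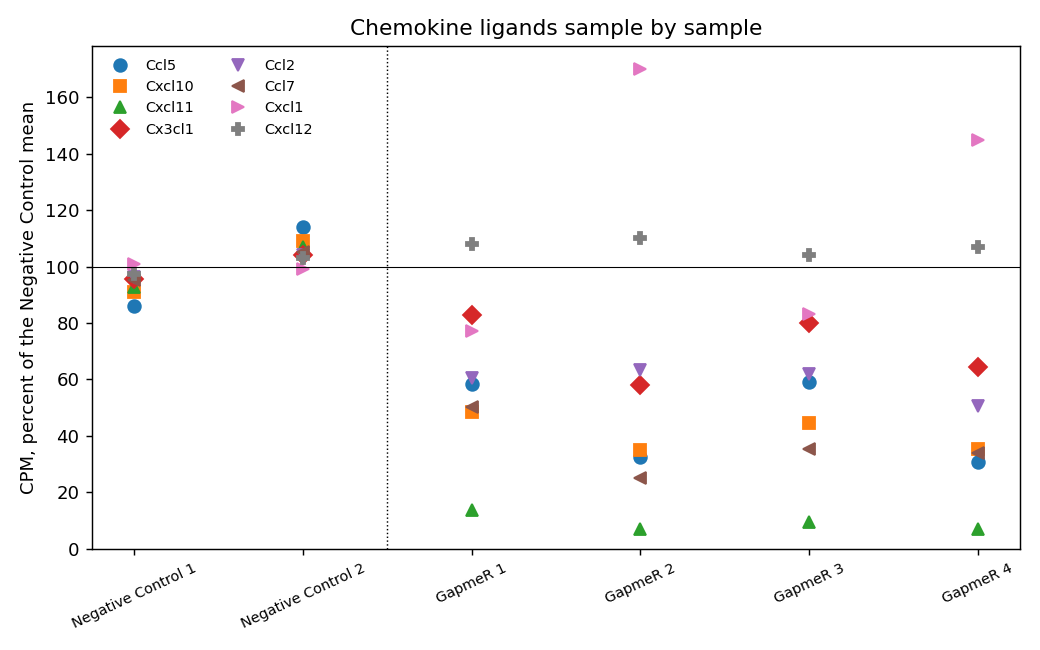
Expression of 8 chemokine ligands in each sample as a percentage of the Negative Control mean (y axis, linear, from 0), one marker per gene and sample. Ccl5, Cxcl10, Cxcl11, Cx3cl1 and, by a small margin, Ccl7 are lower in GapmeR 2 and 4 than in GapmeR 1 and 3. Cxcl1 has the opposite order, and Cxcl12 stays between 97.3% and 110% throughout.

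Compared per kb of exon, the level of the 10 genes in the controls ran from Ccl2 (213 CPM per kb) through Ccl5 (103), Cxcl10 (94.0), Cxcl12 (61.1), Cx3cl1 (15.3), Ackr3 (13.6), Cxcl1 (11.2), Ccl7 (2.04) and Ccl4 (1.03) to Cxcl16 (0.577). Neighbours in that order did not overlap between the controls except Ccl5 and Cxcl10, which could not be ranked. After knockdown Cxcl12 (65.5 CPM per kb) was second to Ccl2 (126), with Ccl5 (46.7) and Cxcl10 (38.4) behind it, and Ccl4 (1.85) was above Ccl7 (0.736). In the GapmeR samples Ccl5 overlapped Cxcl10, Ackr3 overlapped Cxcl1, Cxcl1 overlapped Cx3cl1 and Ccl7 overlapped Cxcl16. Exon lengths are unions over annotated isoforms, so the level of genes with long alternative 3′ ends such as Cxcl12 may be understated on this scale. The union of Cxcl10, 2252 bases, is as long as its whole span from 92346638 to 92348889, so it leaves out no intron. That of Cxcl1, 1881 bases, also fills its span, whereas that of Ccl5, 1027 bases, does not. The levels of Cxcl10 and Cxcl1 may thus be understated too, and the order holds only for these lengths.

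In sum over all chemokine ligand genes of the table, reads fell from 1132 and 1256 CPM in the controls to 943, 909, 922 and 866 CPM in GapmeR 1 to 4. The 9 ligands of the set made up 96.9% to 98.8% of these reads in every sample. Leaving out Cxcl12, the sum was 636 and 732 CPM in the controls and 318 to 394 CPM after knockdown. Cxcl12 held 43.8% and 41.7% of ligand reads in the controls and 57.3% to 63.3% after knockdown, while Cxcl10 went from 17.0% and 18.4% to between 8.13% and 10.9% and Ccl2 from at least 20.0% to between 14.1% and 16.9%. These are shares of reads, not of molecules, since long transcripts give more reads.

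**Figure D5:**
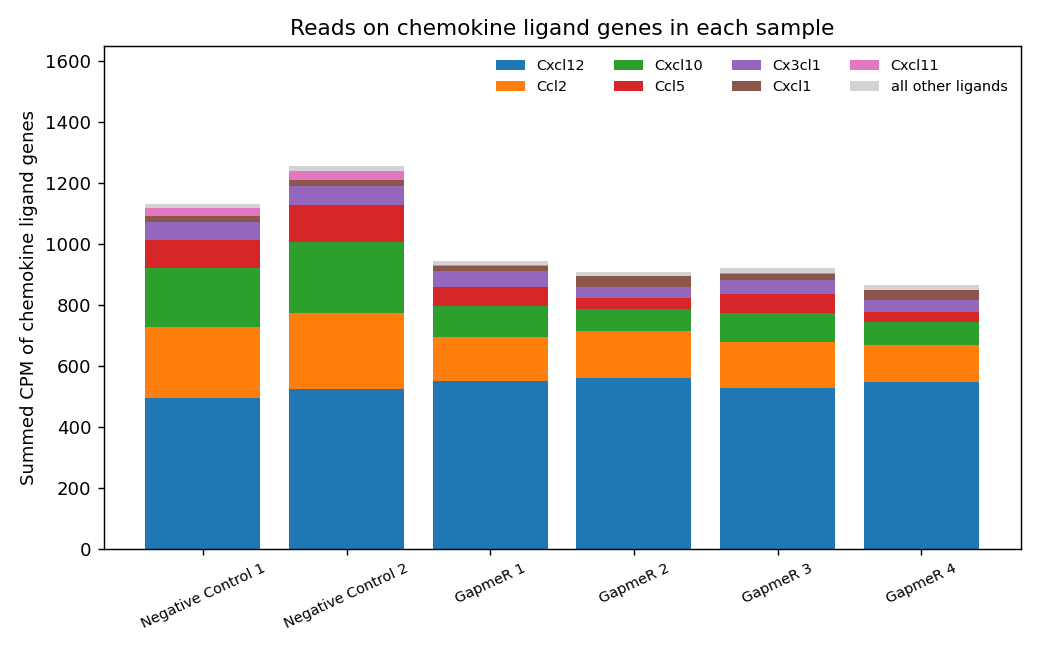
Summed CPM of all chemokine ligand genes in each sample (y axis, from 0), with stacked segments for 7 ligands and the rest in grey. The Cxcl12 segment is of like height in all 6 samples, and the segments of Ccl2, Cxcl10, Ccl5 and Cxcl11 are shorter in the 4 GapmeR samples.

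Of the 30 other ligand genes in the table, 9 could be tested, of which Cxcl11 fell and none rose, where 45.3% of all genes tested were called. The 21 untested ligands had at most 6 counts in a sample, and 8 of them none, too few for a comparison at this depth. The platelet chemokine Pf4 had 75 and 80 counts in the controls and 77 to 91 after knockdown, with a log2 fold change of -0.10 (95% interval -0.52 to 0.33). The log2 fold changes of Ccl25 (-0.17), Cxcl14 (0.30) and Ccl27a (-0.84) did not pass the test, nor did that of Ccl8, on at most 7 counts.

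Over the 7 gene lists outside the set and the markers, 21 genes fell and 6 rose, where scaling by library size only gave 13 and 13. Genes tested in these lists were 9 other ligands, 10 signalling receptors, 3 other atypical receptors and 11 coupling genes. A further 6 processing genes, 16 inducing factors and 7 mRNA decay factors were tested. By comparison, 45.3% of all genes tested were called, 20.0% as lower and 25.4% as higher. Of 18 signalling chemokine receptors, 10 were tested, 1 fell and 1 rose, both with under 1 CPM on average and named here after their values were seen. Cxcr5 had 15 and 25 counts in the controls and 6, 14, 13 and 10 in GapmeR 1 to 4 (edgeR adjusted p = 0.039), and Ccr9 had none in the controls and 4, 5, 3 and 5 (edgeR adjusted p = 0.013). Cxcr4, the signalling receptor of Cxcl12, also named after its values were seen, measured 1.75 and 1.63 CPM in the controls and 1.65, 1.75, 2.55 and 4.30 CPM in GapmeR 1 to 4, highest where the macrophage marker sum was highest, and did not pass (edgeR adjusted p = 0.23). The part of macrophage RNA in its level was not tested.

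Atypical receptors other than Ackr3 changed in both directions. Ccrl2, which binds chemerin without signalling and presents it to leukocytes, had 80.1 and 87.8 CPM in the controls and 46.4, 32.0, 46.7 and 33.4 CPM in GapmeR 1 to 4, and a log2 fold change of -1.08 (edgeR adjusted p = 0.0012). GapmeR 2 and 4 were the lower pair here too. Gpr182, an endothelial receptor that binds several chemokines without signalling, had 12 and 15 counts in the controls and 129, 165, 120 and 99 in GapmeR 1 to 4. It was 8.25-fold higher, with a log2 fold change of 3.03 (SE 0.26, edgeR adjusted p = 9.7e-08). Ackr1, Ackr2 and Ackr4 had at most 6 counts in any sample.

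Of 11 G proteins, receptor kinases and arrestins that couple these receptors, 4 fell and 1 rose, a share near the 45.3% called among all genes tested. The receptor kinase Grk5 had a log2 fold change of -0.61 (edgeR adjusted p = 2.6e-06), the arrestin Arrb2 of -0.55, and the G protein subunits Gnai3 and Gnb2 of -0.33 and -0.27. Arrb1, named after its values were seen, rose by 0.24 on the log2 scale (edgeR adjusted p = 0.0095).

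Among 16 factors known to act on chemokine genes, 9 fell and 2 rose, where 20.0% of all genes tested were called lower and 25.4% higher. Their median log2 fold change was -0.24, beside 0.03 over all genes. Irf1, an interferon-induced factor, had a log2 fold change of -0.87 (edgeR adjusted p = 4.1e-07). Irf7 fell by 0.61 on the log2 scale (edgeR adjusted p = 0.012), and Nfkbiz, an NF-kB cofactor, rose by 0.67 on the log2 scale, being at 35.0 ± 2.91 CPM in the controls (SD, n = 2) and 55.5 ± 4.76 CPM after knockdown (SD, n = 4).

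RNA-binding proteins that shorten or prolong the life of chemokine mRNAs numbered 7, of which 3 fell and 1 rose. Over all genes tested, 20.0% were called lower and 25.4% higher. Zfp36 and Zfp36l1, which bind AU-rich elements and promote decay, had log2 fold changes of -0.42 and -0.45 (edgeR adjusted p = 0.00080 and 0.00019), and Zfp36l2 one of -0.23. Zc3h12a, a nuclease that degrades inflammatory mRNAs, rose by 0.39 on the log2 scale (edgeR adjusted p = 0.038).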

How the data were processed

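Paired-end reads of bEND.3 RNA were made after ribodepletion. The authors trimmed them and used STAR with the mm10 genome, and the submitters' processing notes name Trimmomatic 0.36, STAR 2.5.2b and Subread 1.5.2. The deposited values are raw counts per gene, neither normalized nor filtered, and the strand setting is not given in the sources used here, so overlapping or similar genes may share reads. A further column of per-sample counts (1 in number) was not used: its name, N3, resembles those of the control columns, but no sample label names it, so it was put in no group, and the study's methods describe more control samples than the 2 analysed here. The 10 genes and all lists were chosen with earlier results of these data known.

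The 18234 genes that reached 5 counts in 2 or more samples were tested with edgeR 4.0.16 in R 4.3.3 (TMM, robust quasi-likelihood dispersions, Benjamini-Hochberg adjustment), and the functions were tested on simulated data. The SE of a log2 fold change was derived from its F statistic. The permutation test is 2-sided, on log2(CPM + 0.5). Outside the 10 genes, up to 4 genes per list were named, by size among calls with a mean of at least 1 CPM, and any tested ligand. Alternatives were DESeq2 1.42.0, limma-voom (limma 3.58.1), other scalings and filters, a 1.5-fold threshold, the replicate block and each sample left out. Leaving out GapmeR 3 and 4 together was chosen after seeing the data. Exon lengths come from GENCODE vM39 (GRCm39) by Ensembl identifier, and mm10 coordinates and promoter windows from RefSeq GRCm38.p6. Limits of 3 counts, 0.0771 to 0.110 CPM, cover counting error only. Counts of replicates differed by more than sampling noise (chi-square over degrees of freedom 5.41 to 25.2). Some genes of the lists are not reported here by name.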

Additional observations from a re-analysis of the deposited data

Results flagged for a closer look

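Ackr3 was flagged because GapmeR 4, at 126 CPM, stood apart from the other GapmeR samples, at 106 to 110 CPM. The gap to the nearest sample was 0.832 of the range of the 4 samples, just over the critical value of Dixon's test. Chance flags about 1 in 20 groups, and 11 genes were examined in this way.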

How the results depend on the processing

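The directions of all 10 genes but Ackr3 were the same under every alternative, and the falls of Ccl2 (-0.79 to -0.61), Ccl7 (-1.68 to -1.32) and Cxcl10 (-1.40 to -1.13) passed the threshold under each of the 14. With single samples left out, the log2 fold change of Ccl4 was 0.82 to 0.90, that of Cx3cl1 -0.57 to -0.40, that of Cxcl12 0.08 to 0.16 and that of Ackr3 -0.02 to 0.13. The number of genes called was then, lowest without Negative Control 2, 5232 to 8719 (3302 to 4800 higher, 1930 to 3949 lower), of the 10 genes 3 to 4 were lower and 0 to 1 higher, and of the listed genes outside the set 13 to 21 were lower and 2 to 8 higher. DESeq2's Wald test gave 0.85 for Ccl4 (adjusted p = 0.059), so that none of the 10 genes (0) was higher, and -1.14 for Ccl5 (adjusted p = 0.013), and limma-voom gave -1.21 for Ccl5 (adjusted p = 0.00082). With library size only, Cxcl12 was at 0.25 (adjusted p = 0.0096 from edgeR), 2 of the 10 genes were higher, 2135 genes were lower, and 13 listed genes were lower and 13 higher. A 1.5-fold threshold left 4628 genes, 1390 of them lower, and 3 of the 10 genes as lower, without Cx3cl1. The replicate number, which pairs only GapmeR 1 and 2 with the controls, was no sign of pairing (correlations -0.113 and 0.176 across 8870 genes), and with it as a block 7812 genes were called, and the same 5 of the 10 genes (edgeR adjusted p = 0.027 for Ccl4), on 4 samples. Gm39822 had no value without either control or with at least 10 counts in every sample, since it failed the filter. Having 2 controls limits the precision of every comparison, and Ccl4 and Ccl7 rest on 16 to 55 counts a sample.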
